A study of Mus musculus with 74 samples.

Results

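The autosomal sites at which H3K9me3 appeared by 6 h post activation (hpa) in somatic cell nuclear transfer (SCNT) embryos, and was still called at 14 hpa and in 2-cell embryos, were described as 1-kb windows of the mm10 genome. A window was called marked in a peak list when peaks covered at least 500 bp of it. The windows were selected on the readout itself. They were marked at 6 hpa, at 14 hpa and in 2-cell embryos, and unmarked in the donor cumulus cells (CCs) and in fertilized zygotes of pronuclear stage 5 (PN5). By this rule, 5336 of 2462755 autosomal windows were chosen, 0.223% of the 2395928 windows with assembled sequence. They are called new kept windows here, although the rule allows part of a CC or PN5 peak in a window, and 56.0% of them held part of a CC peak.

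H3K9me3 is the trimethylation of lysine 9 of histone H3. It is laid down by SETDB1 and the SUV39H enzymes, is bound by HP1 proteins, and is known for compacting chromatin over satellites, endogenous retroviruses and silenced genes. In nuclear transfer a somatic nucleus that carries such marks is placed in an enucleated oocyte, and after activation the chromatin is rebuilt by oocyte factors. Donor marks that persist are known as a barrier to the activation of the embryonic genome.

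H3K9me3 had been profiled by ULI-NChIP-seq, a ChIP-seq protocol for few cells on uncrosslinked chromatin cut by micrococcal nuclease. The labels list 74 libraries, 41 of them precipitates and 33 of them inputs. CCs, the somatic cells around the oocyte, and the recipient oocytes came from B6D2F1 (BDF1) females. SCNT embryos, activated with strontium chloride in the presence of cytochalasin B, were taken at 6 and 14 hpa, at the 2-, 4- and 8-cell stages, as morulae, and as blastocysts split into the inner cell mass (ICM) and the trophectoderm (TE). PN5 zygotes came from a C57BL/6 cross and, by the study's methods, from an earlier publication, so that strain, study and kind of embryo cannot be told apart in a comparison with PN5. Libraries of a stage were pooled before peaks were called, which gave 10 lists, 1 per stage, with 2 to 7 precipitated libraries each and 123 to 212 Mb of autosomal sequence covered. No value therefore has a replicate error and no test across samples was run. Intervals are 95% Wilson intervals for shares and 95% Newcombe intervals for differences between shares, both for counting error over windows only.

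The sequences below stand for the kinds of site among the new kept windows. The first 4 lines each show 200 bases around a stretch of 30 bases (a 30-mer, in capitals) that recurred in many of them. They show the strand on which the 30-mer was read and lie at chr16:65030590-65030789, chr4:34443118-34443317, chr15:67271319-67271518 and chr17:87756304-87756503 of mm10, all on the plus strand.
30-mer A: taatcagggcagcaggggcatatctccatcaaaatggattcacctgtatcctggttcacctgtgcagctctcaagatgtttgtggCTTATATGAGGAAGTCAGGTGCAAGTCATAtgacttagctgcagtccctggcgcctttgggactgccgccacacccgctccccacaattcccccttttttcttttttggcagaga
30-mer B: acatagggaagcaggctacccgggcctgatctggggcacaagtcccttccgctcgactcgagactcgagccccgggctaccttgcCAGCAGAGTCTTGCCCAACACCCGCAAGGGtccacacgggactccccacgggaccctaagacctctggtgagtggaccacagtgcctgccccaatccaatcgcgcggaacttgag
30-mer C: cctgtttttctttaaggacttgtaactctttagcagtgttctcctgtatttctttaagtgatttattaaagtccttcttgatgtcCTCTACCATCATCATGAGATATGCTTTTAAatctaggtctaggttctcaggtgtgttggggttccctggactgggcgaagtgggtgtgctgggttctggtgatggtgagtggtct
30-mer D: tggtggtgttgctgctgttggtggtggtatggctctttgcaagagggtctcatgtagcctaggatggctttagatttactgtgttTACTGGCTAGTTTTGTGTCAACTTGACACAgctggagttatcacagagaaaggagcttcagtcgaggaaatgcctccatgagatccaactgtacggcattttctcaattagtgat

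The next lines show 200 bases from the middle of a long run of new kept windows over an exon of Hrnr (chr3:93329401-93329600) and from windows at the imprinted genes Nnat (chr2:157560401-157560600) and Kcnq1 (chr7:143295401-143295600) and at the promoter of the developmental regulator Foxc2 (chr8:121116401-121116600). They are on the plus strand, with CpG dinucleotides in capitals. The Hrnr stretch has 5 CpGs and the Foxc2 stretch has 32, the fewest and the most of these stretches. The Nnat, Kcnq1 and Foxc2 windows overlap CpG islands, as do only 1.44% of the new kept windows.
Hrnr run: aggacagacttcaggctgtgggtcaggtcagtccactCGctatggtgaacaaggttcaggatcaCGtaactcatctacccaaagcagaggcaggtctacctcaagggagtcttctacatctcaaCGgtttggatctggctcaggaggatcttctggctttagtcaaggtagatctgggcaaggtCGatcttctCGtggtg
Nnat window: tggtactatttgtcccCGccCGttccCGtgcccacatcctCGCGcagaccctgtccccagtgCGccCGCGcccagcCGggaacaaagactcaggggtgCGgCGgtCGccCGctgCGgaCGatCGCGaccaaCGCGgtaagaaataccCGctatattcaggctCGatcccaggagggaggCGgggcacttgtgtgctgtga
Kcnq1 window: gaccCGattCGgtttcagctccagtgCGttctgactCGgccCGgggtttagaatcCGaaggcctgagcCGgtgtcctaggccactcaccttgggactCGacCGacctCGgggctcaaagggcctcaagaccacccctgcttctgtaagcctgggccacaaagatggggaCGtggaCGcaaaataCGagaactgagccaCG
Foxc2 window: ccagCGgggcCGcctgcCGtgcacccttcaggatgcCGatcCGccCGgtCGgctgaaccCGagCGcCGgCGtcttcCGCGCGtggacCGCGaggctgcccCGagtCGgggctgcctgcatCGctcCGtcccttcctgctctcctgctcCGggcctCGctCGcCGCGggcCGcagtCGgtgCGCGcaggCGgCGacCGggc

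To place the new kept windows among marks new at 6 hpa, the path through the rule was counted. De novo windows are here those marked at 6 hpa and unmarked in both CCs and PN5. The paper defines de novo marks by the change from CCs to 6 hpa, without PN5, so that its set is wider. At 6 hpa, 37555 windows were marked that were unmarked in CCs and PN5. Of these, 10904 (29.0%) were also marked at 14 hpa, and 5336 (48.9% of these) were still marked in 2-cell embryos. The new kept windows were thus 14.2% of the de novo windows at 6 hpa and 4.81% of all windows marked in 2-cell embryos. Of the 52135 windows marked at all of 6 hpa, 14 hpa and the 2-cell stage, they made up 10.2%, whereas 21028 (40.3%) were marked in both CCs and PN5. These counts describe the rule.

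The authors' fold enrichment of the peaks over the new kept windows had a median of 2.88 at 6 hpa, 2.98 at 14 hpa and 3.30 in 2-cell embryos. The middle 90% of windows lay between 2.46 and 3.82 at 6 hpa and between 2.61 and 4.46 in 2-cell embryos. Peaks over them had median widths of 1497, 2588 and 2102 bp in the same order, so that most windows held part of a wider peak. In all, 844 windows (15.8%) were fully covered in each of the 3 lists. Near the threshold, 521 new kept windows held 500 bp of 6 hpa peak or up to 50 bp more, and 577 windows fell short of the threshold by up to 50 bp while meeting the rest of the rule. The corresponding counts inside and outside were 255 and 202 at 14 hpa, 375 and 286 at the 2-cell stage, 368 and 460 in CCs, and 205 and 260 in PN5. Windows just inside and just outside were marked in 4-cell embryos at 65.1% and 65% for the 6 hpa limit, 59.2% and 61.4% for 14 hpa, 52% and 45.8% for the 2-cell stage, 67.9% and 69.6% for CCs, and 73.7% and 76.9% for PN5. In ICM the shares were 51.1% and 47.7%, 36.9% and 29.2%, 41.1% and 40.6%, 54.3% and 63.3%, and 55.1% and 50.8% in the same order.

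The later lists were not used to choose the windows. In 4-cell embryos, 3865 of the 5336 new kept windows were marked, 72.4% (71.2 to 73.6%), against 5.95% of all assembled windows. In 8-cell embryos 63.0% (61.7 to 64.3%) were marked, against 6.11% of all windows, and in morulae 62.9% (61.6 to 64.1%), against 7% of all windows. In the blastocyst the shares were 44.8% (43.5 to 46.1%) in ICM and 44.2% (42.9 to 45.5%) in TE, against 5.82% and 5.39% of all windows. All windows weighted to the GC content of the new kept ones were marked at 11.8% in 4-cell embryos, 8.4% in ICM and 8.31% in TE. Marking of the new kept windows was thus above the background in each later list and lowest in the 2 blastocyst lineages. The share marked in 4-cell embryos ranged over the 19 autosomes from 64.6% to 80.6%, and in ICM from 31.0% to 66.0%.

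The comparison sets were windows that differ from the new kept ones in part of the rule. Early-lost windows were marked at 6 hpa and in none of the other 4 lists used by the rule (23515 windows). Donor-kept windows were marked in CCs and at 6 hpa, 14 hpa and the 2-cell stage and not in PN5 (20852 windows). Zygote-shared windows were marked at the same 3 SCNT stages and in PN5 but not in CCs (4919 windows).

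Early-lost windows were marked far less often later on, at 13.7% (13.2 to 14.1%) in 4-cell embryos and 9.90% (9.53 to 10.3%) in ICM. The difference from the new kept windows was 58.8 percentage points in 4-cell embryos (57.5 to 60.0) and 34.9 points in ICM (33.5 to 36.3), and the new kept windows were higher on 19 of 19 autosomes in each later list. Early-lost windows differ from them by being unmarked at the 2 stages before the 4-cell stage, so that the sets differ by construction in the lists that directly precede it.

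Donor-kept windows were marked nearly as often as the new kept ones in early cleavage and more often from the morula on. In 4-cell embryos 72% of them were marked, a difference of 0.387 points (−0.97 to 1.72), and in 8-cell embryos 62.4%, a difference of 0.556 points (−0.903 to 2.00). In morulae 68.0% of donor-kept windows were marked, and the new kept windows were lower by 5.16 points (interval of the difference −6.61 to −3.73). In ICM 54.2% of donor-kept windows were marked and the difference was −9.41 points (−10.9 to −7.91), and in TE 54.5%, with a difference of −10.3 points (−11.8 to −8.85). The new kept windows were lower on 18 of 19 autosomes in morula, ICM and TE. Autosomes were uneven in the donor-kept set, whose median autosome stood at 67.6% in ICM against 47.7% for the new kept windows, a wider gap than in the pooled shares. In 4-cell embryos the medians were 75% and 72.3%, and the new kept windows were lower on 11 of 19 autosomes although their pooled share was slightly higher. With all lists trimmed to the covered length of the shortest, the difference in ICM was −3.17 points (−4.72 to −1.63). The difference in 4-cell embryos exceeded 0 when 200 bp counted as marked, at 1.76 points (0.771 to 2.74). It was 3.38 points (1.06 to 5.61) with no CC or PN5 base in new kept windows and no PN5 base in donor-kept ones. Donor-kept windows also held more soft-masked sequence, and the same comparison within classes of soft-masking is given below.

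Zygote-shared windows were marked more often in 4-cell embryos, at 81.1% (80.0 to 82.2%), and the new kept windows were lower there by 8.70 points (interval of the difference −10.3 to −7.07), on 19 of 19 autosomes. In ICM the difference was −3.41 points (−5.34 to −1.48), and the new kept windows were lower on 12 of 19 autosomes.

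**Figure D1:**
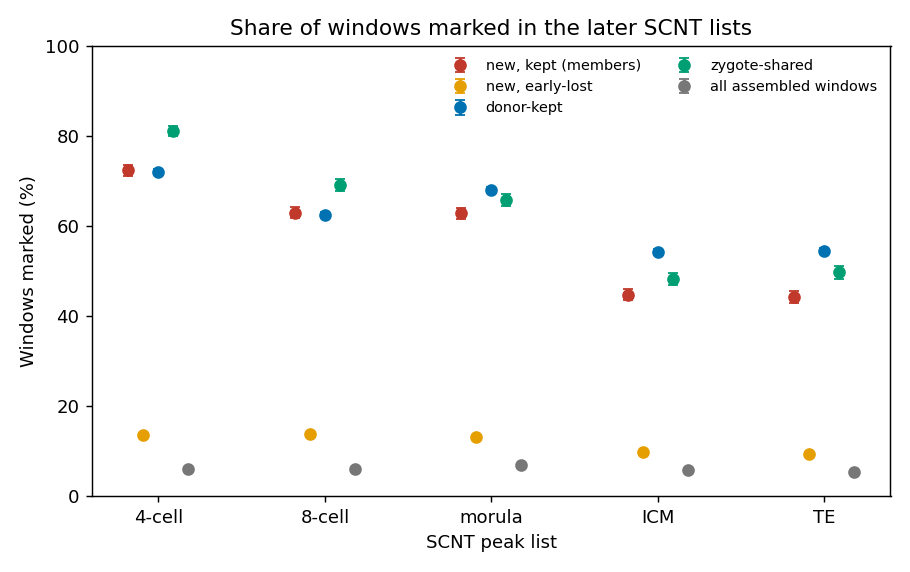
Share of windows marked (y axis, %) in each later SCNT peak list (x axis) for the new kept windows, the early-lost, donor-kept and zygote-shared windows and all assembled windows; bars are 95% Wilson intervals for counting error. The new kept windows lie beside the donor-kept windows at the 4- and 8-cell stages and below them from the morula on, at 44.8% against 54.2% in ICM.

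Single windows took many paths. In all 5 later lists 1090 new kept windows (20.4%) were marked, and in none of them 418 (7.83%). The next most frequent pattern was marking in 4-cell and 8-cell embryos and morulae without ICM and TE, in 544 windows (10.2%), followed by marking in 4- and 8-cell embryos only, in 488 (9.15%), and in 4-cell embryos only, in 365 (6.84%). Donor-kept windows were marked in all 5 later lists at 29.1% and early-lost windows at 1.31%. Of the new kept windows marked in morulae, 59.3% (57.6 to 60.9%) were marked in ICM, and of those unmarked in morulae, 20.3% (18.6 to 22.1%). Of all assembled windows marked in morulae 54.4% were marked in ICM, and of donor-kept ones 68.3%, so that the new kept windows were near the background here. Of all windows unmarked in morulae 2.17% were marked in ICM. Of the new kept windows marked in ICM, 76.3% (74.5 to 77.9%) were marked in TE, between 65.9% of all assembled windows marked in ICM and 84.5% of donor-kept ones. Where no peak was called, signal did not pass the threshold, and the mark may still be present below it.

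Repeat content separated the windows that stayed marked into the blastocyst from those that did not. Soft-masked bases are those that the genome assembly gives as repeats. They made up 44.5% of the bases of the new kept windows, 31.2% in early-lost windows, 49.8% in donor-kept windows, 45.3% in zygote-shared windows, 33.5% in all windows, and 28.5% in all windows at the GC content of the new kept ones. Among the 837 new kept windows that were at least 90% soft-masked, 73.4% were marked in 4-cell embryos, 80.8% in morulae, 82.2% (79.5 to 84.6%) in ICM and 74.9% (71.9 to 77.7%) in TE. Among the 935 windows under 10% soft-masked, 79.4% were marked in 4-cell embryos, 59.9% in morulae, 24.9% (22.3 to 27.8%) in ICM and 25.5% (22.8 to 28.3%) in TE. The repeat-rich windows were lower by 6 points in 4-cell embryos (interval of the difference −9.96 to −2.04) and higher by 57.3 points in ICM (53.3 to 60.9), the latter on 19 of 19 autosomes.

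This contrast was not particular to new marks. Donor-kept windows were marked in ICM at 90.8% when at least 90% soft-masked and at 27.9% when under 10%, and early-lost windows at 34.5% and 3.72%. Over all assembled windows the shares in ICM were 27.5% and 2.56%. Within the class of at least 90%, the new kept windows (82.2%, 79.5 to 84.6%) were below the donor-kept ones (90.8%, 90 to 91.6%), between 10 and 90% they stood at 41.2% (39.6 to 42.8%) against 47.2% (46.4 to 48.1%), and under 10% they stood at 24.9% (22.3 to 27.8%) against 27.9% (26.4 to 29.5%), with intervals that overlap. Reads from repeats can align to several places, and how such reads were handled is not given in the sources used here.

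**Figure D2:**
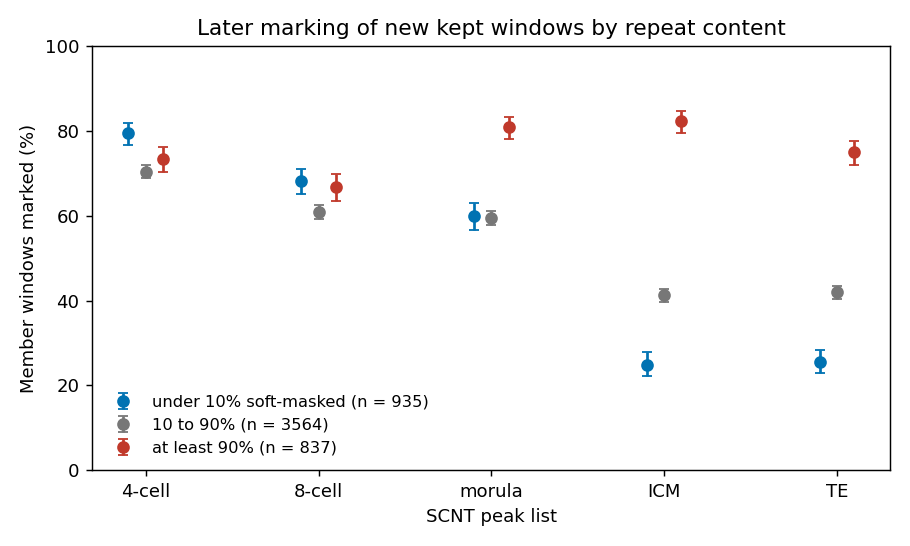
New kept windows marked (y axis, %) in each later SCNT peak list (x axis), split by the share of the window that is soft-masked; bars are 95% Wilson intervals. The 3 classes lie within 10 points of each other in 4-cell embryos and apart in ICM, from 24.9% for repeat-poor to 82.2% for repeat-rich windows.

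Recurrent sequence was looked for by counting 30-mers shared between new kept windows, and 6 of the most frequent ones were taken greedily. They were picked on these windows, so their frequency there is a description. They are named A to F, and A to D are shown in the opening sequences. Together they occurred in 688 of the 5141 windows searched (13.4%). 30-mer A was found in 174 new kept windows (3.26%), in 1.82% of donor-kept, 0.569% of zygote-shared and 0.00851% of early-lost windows, and in 0.0702% of all windows. 30-mer B was found in 2.68% of the new kept windows and 2.46% of the donor-kept ones, and 30-mer C in 2.57% and 2.98%. 30-mer D was found in 2.19% of the new kept windows, 1.02% of the donor-kept ones and 0.243% of all windows. Among A to D, A had the largest ratio between new kept and zygote-shared windows, while B and C were as frequent, or nearly so, in windows that were already marked in CCs.

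Over the whole autosomal genome, windows that hold 30-mer A numbered 1681. They were marked at 49.3% in CCs, 53.2% at 6 hpa, 88.5% at 14 hpa, 70.9% in 2-cell embryos, 52.7% in ICM and 21.5% in PN5. Windows with 30-mer B numbered 2896 and were marked at 58.3% in CCs, 56.9% at 6 hpa, 78.7% at 14 hpa, 74.8% in ICM and 31% in PN5. Windows with 30-mer C numbered 7122, with 52.6% marked in CCs, 26.5% at 6 hpa, 71.2% at 14 hpa and 73.6% in ICM. Those with 30-mer D numbered 5817 and were marked less throughout, at 12.4% in CCs, 14.7% at 6 hpa, 23.4% at 14 hpa and 16.3% in ICM. Copies of the same sequence were thus on both sides of the rule. Within the new kept windows, the 143 with B were marked in ICM at 90.2% (84.2 to 94.1%), the 73 with E at 95.9% (88.6 to 98.6%), the 137 with C at 73.0% (65 to 79.7%), the 174 with A at 56.9% (49.5 to 64.0%) and the 117 with D at 60.7% (51.6 to 69.1%). The intervals of A and D overlap, and those of B and E lie above both.

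In base composition the new kept windows were closer to donor-kept and zygote-shared windows than to the de novo marks that were lost. Their mean GC content was 47.8% ± 4.15 (SD over windows, n = 5336). It was 48.0% ± 4.38 in donor-kept, 48.7% ± 4.55 in zygote-shared, 49.4% ± 7.73 in early-lost and 41.9% ± 5.84 in all assembled windows. CpG dinucleotides numbered 14.5 per kb in the new kept windows, 15.7 in donor-kept, 14.7 in zygote-shared, 20.4 in early-lost and 8.51 in all windows. The early-lost set held a tail of very GC-rich windows, with its 95th percentile at 65.7% GC against 54.4% in the new kept set. Later marking also varied with GC among the new kept windows. Those under 45% GC were marked at 59.9% (57.1 to 62.6%) in 4-cell embryos and 48.7% (45.9 to 51.5%) in ICM, and those of at least 50% GC at 78.2% (76.0 to 80.2%) and 42.1% (39.6 to 44.7%).

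**Figure D3:**
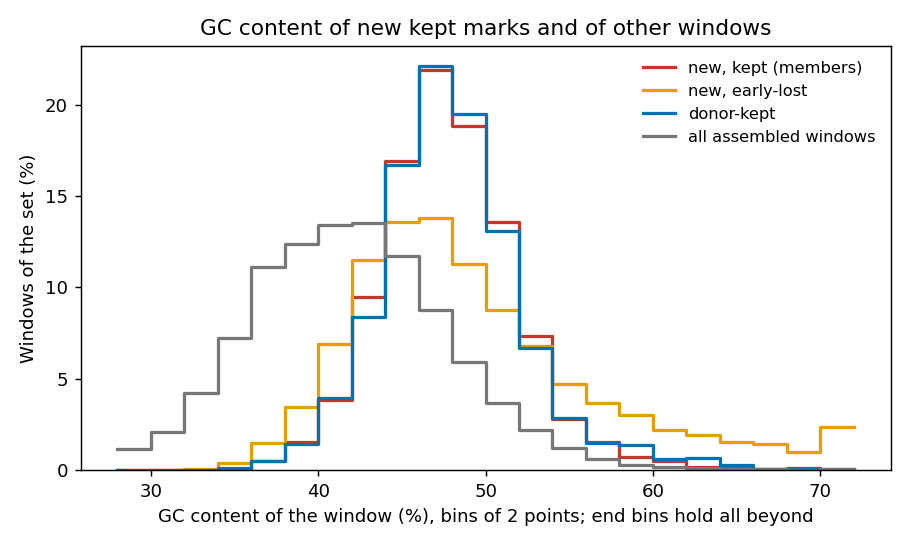
GC content of windows (x axis, %, bins of 2 points) against the share of each set in the bin (y axis, %) for the new kept, early-lost and donor-kept windows and all assembled windows. The new kept and donor-kept lines nearly coincide, with means of 47.8% and 48.0%, and the early-lost line extends to higher GC.

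CpG islands, dense CpG stretches that mark most promoters, were rare among the new kept windows. They overlapped 77 of them, 1.44%, against 14.2% of early-lost windows, a difference of −12.8 points (−13.3 to −12.2). The share was 1.05% in donor-kept windows, 1.59% in zygote-shared ones, 1.03% in all windows and 2.53% in all windows at the GC content of the new kept ones. Islands were searched in unmasked bases only, and the soft-masked share differs between these sets. How much this adds to the differences was not tested. The 77 island windows were marked at 64.9% (53.8 to 74.7%) in 4-cell embryos, 39.0% (28.8 to 50.1%) in 8-cell embryos, 26.0% (17.5 to 36.7%) in morulae and 22.1% (14.3 to 32.5%) in ICM.

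Promoters, taken as the bases within 1 kb of the annotated start of a protein-coding gene, were also rarer than among early-lost windows, and the 2 features overlap. Of the new kept windows 76, 1.42% (1.14 to 1.78%), touched a promoter, against 12.5% of early-lost, 1.06% of donor-kept and 1.97% of zygote-shared windows. This was below the 2.43% of all windows and 4.5% of all windows at the same GC content, whereas the share with CpG islands was above that of all windows. Gene bodies of any type were overlapped by 39.2% (37.9 to 40.5%), against 54.3% in early-lost and 35.6% in donor-kept windows, 49.8% in all windows and 58.6% in all windows at the same GC content. Exons were overlapped by 11.7%, against 26.4% in early-lost and 21% in all windows at the same GC content. The new kept windows were therefore mostly outside genes and, within genes, mostly intronic.

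Short motifs were counted on both strands. TGCCGC, the core read by the zinc finger protein ZFP57 at imprinted regions when methylated, was found in 16.7% (15.8 to 17.8%) of the new kept windows, in 16.2% of early-lost, 15.9% of donor-kept and 15% of zygote-shared windows, and in 5.89% of all windows and 10.9% of all windows at the same GC content. New kept windows with TGCCGC were marked in ICM at 53.2% (49.9 to 56.4%) and those without it at 43.1% (41.7 to 44.6%). Repeat content was not compared between these windows, and its part in the difference was not tested. CACGTG, the E-box, was in 13.2%, against 13.3% of all windows at the same GC content, and CCATNTT, the core of the YY1 motif, in 56.9%, against 53.6%. Tandem repeats of TTAGGG (2 units) were in 1 of the 5336 windows (0.0187%), those of GAA (4 units) in 1.03% and those of CA (8 units) in 8.45%. In all windows at the same GC content the shares were 0.0632%, 0.948% and 11.4%, so that GAA was near its background. A match in these letters is no evidence of binding.

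The new kept windows lay close to donor marks. By the rule CC peaks could cover just under 500 bp of a window, and 2988 windows (56.0%) held such a part of a CC peak, whereas 2348 (44.0%) held none. Within 1 kb of a CC peak, or holding part of one, were 77.1% of the new kept windows, 63.7% of zygote-shared, 41.6% of early-lost and 15.4% of all windows unmarked in CCs. Only 305 (5.72%) lay over 10 kb from any CC peak, against 23.1% of early-lost windows. A window next to a CC-marked window made up 49.1% of the new kept set and 18% of the early-lost set. That share fell to 20.1% when all lists were trimmed to the covered length of the shortest, which shortens the CC list most. For PN5, whose list covers 129 Mb against 212 Mb in CCs, 3626 windows (68.0%) held no peak and 48.3% lay within 1 kb of one, against 14.3% of all windows unmarked in PN5. No part of a CC or PN5 peak was found in 1680 windows (31.5%), and 99 (1.86%) lay over 10 kb from both.

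Windows that held part of a CC peak were marked in 4-cell embryos as often as those that held none, at 72.1% (70.5 to 73.7%) and 72.9% (71 to 74.6%). They differed in ICM, at 50.9% (49.1 to 52.7%) with a part and 37.0% (35.0 to 38.9%) without, and in TE, at 49.7% and 37.1%. Repeat content differed in the same direction, since 30.8% of the windows at least 90% soft-masked and 54.0% of those under 10% held no CC peak, and its part in the difference was not tested. The 1680 windows free of both CC and PN5 peaks were marked at 72.2% (70.0 to 74.3%) in 4-cell embryos and 35.5% (33.2 to 37.8%) in ICM.

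**Figure D4:**
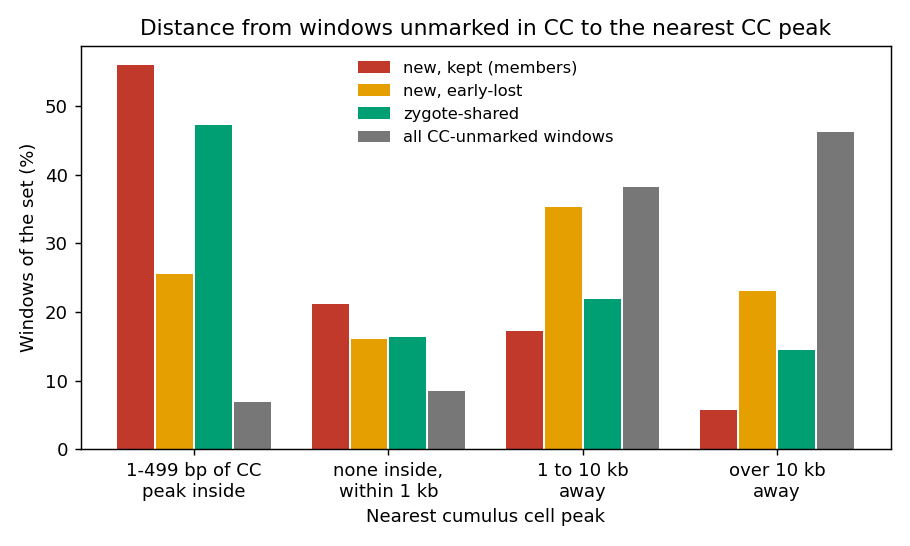
Windows unmarked in CCs by their nearest CC peak (x axis) as a share of each set (y axis, %), for the new kept, early-lost and zygote-shared windows and all windows unmarked in CCs. Of the new kept windows 56.0% hold part of a CC peak and 5.72% lie over 10 kb away, against 46.3% of all unmarked windows over 10 kb away.

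The windows were spread over all autosomes, mostly one at a time. Their density was 2.23 ± 0.65 per 1000 assembled windows (SD, n = 19 autosomes), from 1.35 on chromosome 1 to 3.75 on chromosome 5, followed by 3.13 on chromosome 7 and 3 on chromosome 15. As a share of the de novo windows at 6 hpa they were more even, 14.2% ± 1.68, from 12% to 17.4%. Adjacent windows formed 4950 runs, of which 4611 (93.2%) were single windows and 2 reached 5 kb. Of 2413 bins of 1 Mb, 1694 held at least 1 new kept window, and 92 bins with 10 or more held 1558 windows (29.2%). The densest bin, chr4:131000001-132000000 with 52 windows, contains Ptpru, Mecr, Srsf4, Tmem200b and Epb41. The next, chr13:57000001-58000000 with 45 windows, contains Spock1 alone among protein-coding genes.

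**Figure D5:**
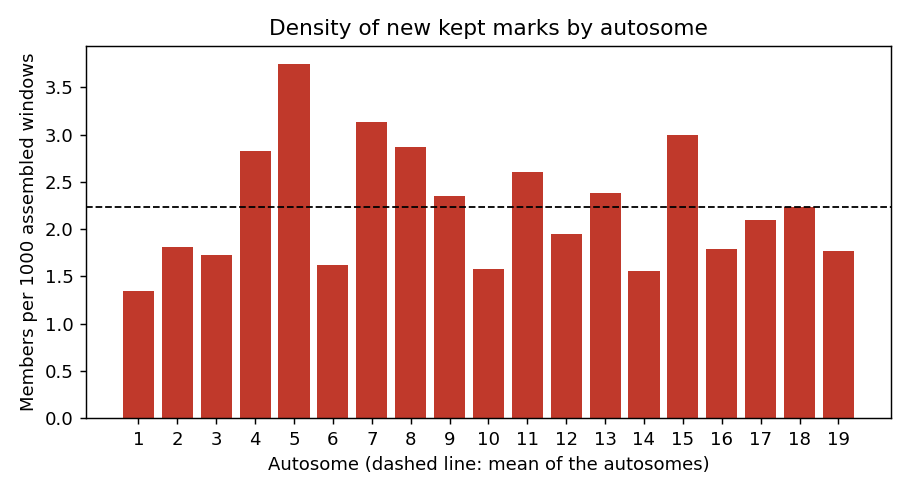
New kept windows per 1000 assembled windows (y axis) on each autosome (x axis), with the mean of the autosomes as a dashed line. Chromosome 5 is highest at 3.75 and chromosome 1 lowest at 1.35, around a mean of 2.23.

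The longest runs, on different chromosomes, differed in how long they stayed covered. The run at chr3:93327001-93332000 covers 5 kb of exon of Hrnr, which encodes hornerin, a repeat-built protein of the cornified skin barrier. Its coverage was 19.1% in CCs and 5.72% in PN5, 91.7% at 6 hpa, 94.8% at 14 hpa and 91.8% in 2-cell embryos, and then 90.5% in 4-cell embryos, 95.9% in 8-cell embryos, 91.8% in morulae, 100% in ICM and 91.7% in TE. The run at chr8:11683001-11688000, in an intron of 1700016D06Rik and over the pseudogene Gm7600, had 73.3% of its bases in ICM peaks and 83.4% in TE peaks. By contrast, the 4-kb runs in introns of Cacng2, which encodes stargazin, an AMPA receptor partner (chr15:78057001-78061000), and of Spock1, a testican proteoglycan gene (chr13:57735001-57739000), were covered to 84.1% and 65.6% in 4-cell embryos and to 0% in ICM and TE. The Hrnr run was 7.06% soft-masked and stayed covered into both lineages, unlike most repeat-poor windows.

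The windows of highest fold were ranked by the lowest of their 3 values. The first, chr17:7912001-7913000 in an intron of the noncoding gene E430024P14Rik, had fold 6.37 at 6 hpa, 5.90 at 14 hpa and 6.43 in 2-cell embryos, and was fully covered in all 5 later lists, with 34.7% in CCs and 0% in PN5. The second, chr3:100224001-100225000 between genes, had 5.93, 5.04 and 4.94, held no CC peak, and peaks took up 63.8% of it in ICM and 100% in TE. The third, chr14:20256001-20257000, was wholly soft-masked, had 5.45, 4.92 and 5.58 and was uncovered in morulae but fully covered in ICM and TE. High fold at the early stages was thus found in windows with and without part of a CC peak inside. How far the nearest CC peak lay from these windows was not examined.

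Protein-coding genes with a new kept window in the body numbered 765 of 20807 (3.68%), 509 of them with a single window and 61 with 5 or more. Long genes have more windows to be hit. Spock1 held 31 of its 488 windows, of which 22 were marked in 4-cell embryos and 3 in ICM. Csmd2, a large complement-control-domain protein of synapses, held 30 of 581, with 26 marked in 4-cell embryos and 5 in ICM. Cdh13 (T-cadherin) held 23 of 1042, with 12 and 6 marked at these stages, and Cdh4 (R-cadherin) 15 of 458, with 12 and 0. Sdk1, a synaptic adhesion protein of the retina, held 14 of 975, with 7 in 4-cell embryos and 0 in ICM. Per 1000 windows the highest densities among the 15 genes with most windows were 76.9 in Col26a1, a collagen gene, 75 in Efcab6 and 63.5 in Spock1, against 1.51 over all protein-coding gene bodies.

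This group also held Apba2 (15 windows), Otud7a (14), Asic2, an acid-sensing channel (16), Rimbp2 (12) and Camta1 (11). Rbfox3, the neuronal splicing factor NeuN (11), Fgfr2 (17) and the readthrough gene model Gm20388 (21), which overlaps other genes, completed it. The annotated bodies of Fgfr2 and Gm20388 span 2962 and 4436 windows. Which other genes within these spans hold the new kept windows was not examined. In 14 of these 15 genes fewer than 50% of the windows were marked in ICM. Over all protein-coding bodies 560 of 1522 new kept windows were marked there.

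The promoter with most bases in new kept windows was that of Psg17, a pregnancy-specific glycoprotein gene expressed in trophoblast, at chr7:18821607 with 1607 bases. Its promoter was covered to 0% in CCs, 56.7% at 6 hpa, 78.9% at 14 hpa and 100% in 2-, 4- and 8-cell embryos, and then 74.2% in morulae, 12.5% in ICM and 25.9% in TE. The promoter of Krtap9-5, a hair keratin-associated protein gene, was covered to 49.6% at 6 hpa, 100% at 14 hpa and 53.7% in 2-cell embryos and to 0% in ICM and TE. Others among the 15 highest were Reg2 (pancreas), whose promoter was also covered to 54.7% in CCs and 43.3% in PN5, Klk5 (skin), Cyp2b10 (liver) and Cd300e (myeloid cells). The new kept windows at the promoters of Tescl, Foxc2, Gm9857, Rpl8 and Mael overlapped a CpG island, and those at the other promoters of the 15 did not. A promoter of the ribosomal protein gene Rpl8 was covered to between 34.0% and 44.1% in the 3 lists of the rule, 31.9% in 4-cell embryos and 0% afterwards.

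Gene groups that H3K9me3 is known to cover were examined by lists. Of 25 imprinted genes, 5 held a new kept window (20%, 8.86 to 39.1%), and 2 of them in the promoter (8%, 2.22 to 25%). Among all protein-coding genes these shares were 3.68% and 0.365%. Per 1000 windows, the imprinted gene bodies held 2.85 new kept, 2.85 zygote-shared, 6.83 donor-kept and 12 early-lost windows. Over all protein-coding bodies the values were 1.51, 1.54, 4.89 and 10.6 in the same order. At Nnat, a paternally expressed gene inside an intron of another gene, the window chr2:157560001-157561000 held 204 bp of CC peak and 144 bp of PN5 peak, 537, 820 and 636 bp at 6 hpa, 14 hpa and the 2-cell stage, and then 1000, 570, 588, 583 and 1000 bp in 4-cell, 8-cell, morula, ICM and TE. It was marked in all 5 later lists. At Kcnq1 the window chr7:143295001-143296000 held 0 bp in CCs and PN5, 931, 935 and 1000 bp in the 3 lists of the rule and 993, 509, 1000, 1000 and 824 bp in the later ones. It lies in an intron of Kcnq1 near the start of the antisense RNA Kcnq1ot1 (chr7:143203458-143296549, minus strand), where the imprinting control region of this cluster is known to be.

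The Nap1l5 window, in the promoter of a paternally expressed gene, held 535, 535 and 542 bp in the 3 lists, just above the threshold, and 440 bp in ICM and 1000 bp in TE. The windows at Mest and Snrpn lay in the gene bodies away from the annotated starts. The Mest window was marked in 8-cell embryos, ICM and TE, and the Snrpn window in 4-cell embryos only. Imprinted differentially methylated regions carry H3K9me3 on 1 parental allele, which these lists do not separate.

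Of 191 developmental regulators 8 held a new kept window in the body, 4.19% against 3.68% of all protein-coding genes, and 4 in the promoter, 2.09% (0.817 to 5.26%) against 0.365%. Per 1000 windows, their bodies held 1.41 new kept, 1.84 zygote-shared, 0.758 donor-kept and 43.8 early-lost windows. Over all protein-coding bodies the values were 1.51, 1.54, 4.89 and 10.6 in the same order, so that only early-lost windows were much denser in these genes. The promoters were those of Foxc2, Foxd1 and Foxe3, forkhead factors of mesoderm, kidney stroma and lens, and Irx2, an Iroquois factor. In gene bodies, the 4 windows of the muscle stem cell factor Pax7 were marked in 4-cell embryos, 8-cell embryos and morulae and 1 of them in ICM, and the 2 of the heart and limb factor Tbx5 were marked in 4- and 8-cell embryos and 1 in morulae and 1 in ICM. The Foxc2 window held 605, 938 and 890 bp at 6 hpa, 14 hpa and the 2-cell stage and 0 bp in all 5 later lists. The Foxd1 window held 1000, 977 and 587 bp and likewise 0 bp in all later lists, as did the Irx2 window with 1000, 861 and 529 bp. The Foxe3 window, with 1000, 808 and 865 bp, was fully covered in 4-cell embryos and uncovered afterwards. Of 39 Hox genes, Hoxa3, Hoxa5 and Hoxa6 held new kept windows (7.69%, 2.65 to 20.3%), which were 2 distinct windows in all. Per 1000 windows, the Hox bodies held 6.35 new kept, 9.52 zygote-shared, 0 donor-kept and 168 early-lost windows. The window in the Hoxa5 promoter was covered to 1000 bp in 4-cell embryos and 875 bp in 8-cell embryos and to 0 bp from the morula on. The 5 promoter windows of the Hox and developmental genes were unmarked in morulae, ICM and TE. Of all 76 new kept windows in promoters 35.5% were marked in morulae, 27.6% in ICM and 21.1% in TE.

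Of 25 germline genes 5 held a new kept window, 20% (8.86 to 39.1%), against 3.68% of all protein-coding genes. Per 1000 windows, their bodies held 6.89 new kept, 4.31 zygote-shared, 10.3 donor-kept and 11.2 early-lost windows. All protein-coding bodies held 1.51, 1.54, 4.89 and 10.6 in the same order. The promoter window of Mael, which encodes a factor of the piRNA pathway, held 502, 957 and 881 bp in the 3 lists, 906 bp in 4-cell embryos, 0 bp in morulae, 561 bp in ICM and 889 bp in TE. That of Tex101, a germ cell surface protein gene, was marked in 4-cell embryos, morulae, ICM and TE. Piwil1 (3 windows), Sycp1 (2) and Tdrd9 (1) held them in the body, and the Sycp1 windows were marked in no later list.

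Zinc finger genes named Zfp, whose clusters are known H3K9me3 targets, held 26 new kept windows in 14 of 385 genes (3.64%, against 3.68% of all protein-coding genes) and 0 in promoters, where the Wilson interval reaches 0.988%. This is 2.03 new kept windows per 1000 windows and 12.4 donor-kept ones per 1000 in the same genes, against 1.51 and 4.89 over all protein-coding bodies. Zfp536, a factor of neuronal differentiation, held 11 of the 26, of which 9 were marked in 4-cell embryos and 0 in ICM. Olfactory receptor genes held them in 10 of 1128 bodies (0.887%) and 5 promoters (0.443%, against 0.365% of all protein-coding genes). Vomeronasal receptor genes held them in 9 of 329 (2.74%). Per 1000 windows these bodies held 1.39 and 1.62 new kept windows, near the 1.51 over all protein-coding bodies. None was found in 57 clustered protocadherin genes or in 30 genes of the 2-cell program such as the Zscan4 and Usp17l families, where donor-kept windows stood at 112 per 1000 in both lists. None was found in 16 genes for H3K9 enzymes and readers, 20 pluripotency and trophectoderm regulators or 9 factors studied by the authors. With lists of this size the upper Wilson limits on the share of genes were 6.31% for protocadherins, 11.4% for 2-cell genes, 19.4%, 16.1% and 29.9%. In the same order their bodies span 553, 400, 826, 492 and 380 windows. This is too few to tell none from the 1.51 per 1000 over all protein-coding bodies.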

How the data were processed

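The authors trimmed reads with cutadapt 1.16, aligned them to mm10 with BWA mem, merged libraries of a stage with SAMtools, removed duplicates and drew equal read numbers with Picard, and called broad peaks over input with MACS2, which gave the deposited peak lists. Other versions and the calling threshold are not given in the sources used here. Each deposited peak carries the authors' fold enrichment, a ratio of precipitate over background, and a deposited −log10 q, which served only for description, ranking and an alternative limit. Read counts per library are not in the lists, so depth could not be compared.

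Peaks were merged and their bases counted in 1-kb windows from position 0. Sequence and soft-masking came from GRCm38.p6 and gene models from GENCODE M21 (mm10 as well), and coordinates are 1-based. CpG islands were unmasked stretches of at least 200 bases with GC of at least 50% and a CpG observed-to-expected ratio of at least 0.6. Values at matched GC weighted all windows by 1-point GC bins. Computation used Python 3.11.15 and numpy 2.4.6, and coverage, the rule and the intervals were tested on simulated data. Named genes were the 10 longest runs, 15 gene bodies and 15 promoters with most windows or bases, the 10 windows of highest fold and list members with a window in the promoter. The members and lists were chosen with earlier results of these data known, and the 30-mers and the windows at Kcnq1, Mest, Snrpn and in other list gene bodies were chosen after values were seen. Chromosome 18 was left out of the 30-mer search, and X and Y were kept for the closing section.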

Additional observations from a re-analysis of the deposited data

Results flagged for a closer look

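The rule was stated for autosomes, and the same conditions were met on the sex chromosomes, which no comparison above used. On X, 616 windows met them, 9.58% of the 6430 X windows marked at 6 hpa, 14 hpa and the 2-cell stage, and 45% of the 616 were marked in 4-cell embryos, 30.8% in ICM and 28.6% in TE. On Y, 22 windows met them, of 159 marked at the 3 stages, and 12 of the 22 were marked in 4-cell embryos and 15 in ICM. The shares of all X and Y windows marked in the later lists were not counted, so these values have no background beside them. The donor cells and recipient oocytes came from females, so the SCNT embryos carry no Y chromosome and the Y windows are not sites on one. What the Y peaks hold was not tested.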

How the results depend on the processing

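The 11 results were recomputed under 7 alternatives, of which the count of windows could take 6. Of these, 35 of 76 alternative values stayed within the interval of the reported one (within 1.5 times for the count). The number of new kept windows was 8788 when 200 bp counted as marked, 3152 when 800 bp did and 1680 with no bp of CC or PN5 peak allowed. For peaks of −log10 q of at least 2, marking was 69.5% in 4-cell embryos and 47.3% in ICM and mean GC was 48.1%. With 200 bp these values were 76.9%, 48.3% and 46.4%. With 800 bp the 4-cell share was 71.2% and GC 48.9%. With no CC or PN5 base allowed, ICM was 35.5%, GC 48.1% and CpG islands 2.20%. With all lists trimmed to the shortest, marking was 70.5% in 4-cell embryos and 52.7% in ICM, GC 48.2% and CpG islands 1.00%. With 1 value per run, ICM was 46.3%. Differences between shares were recomputed under 6 of these alternatives, chosen after seeing the data. New kept minus donor-kept windows in ICM gave −6.85 points with 800 bp and −3.17 with trimmed lists, and in 4-cell embryos −0.329 with −log10 q of at least 2, 1.76 with 200 bp and 3.38 with no CC or PN5 base allowed in new kept windows and no PN5 base in donor-kept ones. Repeat-rich minus repeat-poor new kept windows in ICM gave 49.8 points with 200 bp, 53.3 with no such base and 61.5 with trimmed lists. Apart from changes that follow from a stricter or looser limit, the cause was not tested. Shifting the windows by 500 bp gave 5320 windows. Equal covered length does not make lists equal in signal. No paired analysis was possible because the lists pool the replicates of a stage, and no replicate could be left out for the same reason. Pooling also means that a deviant library cannot be seen.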
